A study of Homo sapiens with 6 samples.

Results

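The genes described here encode splicing factors and related RNA-binding proteins. They were chosen by symbol, as every gene of the array annotation whose name places it among the SR proteins (SRSF), the hnRNPs, the Sm and snRNP core proteins (SNRP), the snRNP-specific proteins (SNRNP), the SF3A and SF3B proteins, the PRPF proteins, U2AF, the numbered RBM proteins, RBMX, the CLK kinases, the LUC7-like proteins, TRA2 or the CCCH zinc finger proteins of the ZC3H series. The name patterns use no measured value, but they were set with earlier results of these data known. The names matched 137 of 53617 rows and 132 of 14884 symbols, and each symbol was represented by its brightest row. For the 5 symbols with several rows, the measured mean over the 6 arrays thus picked the row. Of the 132 genes, 122 are protein-coding, 6 are transcribed pseudogenes and 4 are long noncoding RNAs antisense to RBM genes. No SF3A, SF3B or RBMX gene was among the named rows, so these proteins were not analysed here, and 11 families remained.

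The arrays held total RNA of Flp-In HEK293 cells, an established human embryonic kidney line that takes up a construct at a fixed genomic site, in an inducible system. One group of 3 arrays came from cells stably overexpressing TDNC1 and the other of 3 from cells expressing a random RNA. Stable clones were pooled in each case, and both groups were grown with blasticidin, with Zeocin before transfection and hygromycin in its place afterwards. The meaning of the name TDNC1 and the use of the inducer are not stated in the labels. The arrays are titled biological replicates, with no word on separate cultures, and the p-values then reflect only the variation among these 6 arrays, which may be technical.

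Splicing removes introns in the spliceosome, which is built from small nuclear RNAs and their proteins. Sm proteins form the ring common to most of these particles, U2AF recognises the end of the intron, and some PRPF proteins act in the later remodelling steps. SR proteins generally promote the use of the exons they bind, hnRNPs often oppose it, and CLK kinases phosphorylate SR proteins. Many of these proteins limit their own level through alternatively spliced exons that mark their messages for decay.

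Some facts of the whole series bear on every value below. Values are log2 RMA expression. Array medians ran from 5.16 to 5.17 in TDNC1 and from 5.16 to 5.22 in the control. The noncoding RNA LOC646736, the transcript already known to differ, stood at 9.71, 9.85 and 9.65 in TDNC1, against 3.56, 3.56 and 3.90 in the control. Kidney-lineage genes such as PAX2, LHX1, EYA1, SALL1 and WT1 had means from 6.32 to 8.35 in TDNC1 and from 5.92 to 8.29 in the control. Their log2 changes were above 0 in 4 genes and below 0 in 1, WT1 (-0.12). PAX2 had the largest, 0.41, higher in TDNC1 with no overlap between the groups (limma adjusted p = 0.631). Of the 4 measured neuronal and adrenal markers (TH, DBH, CHGA and SYP) 0 were dim, and their median change was -0.04. Of the 3 measured fibroblast markers, DCN and LUM were dim. DCN averaged 2.22 in TDNC1, with 2.29 for control cells, and LUM averaged 3.64, with 3.58 for control cells. These means lay below every array's lower quartile, although LUM was above it in TDNC1 replicate 2 (4.19). The fibroblast marker THY1 was not dim, averaging 5.73 in TDNC1 against 5.83 for control cells. None of the 4 blood cell markers was dim, and CD68 was the brightest, averaging 8.28 in TDNC1 against 8.18 for control cells. Of the 5 markers of differentiated epithelium 1 was dim, and EPCAM was the brightest, averaging 9.94 in TDNC1 against 9.91 for control cells. No marker of these lists passed the test between the groups, which does not address whether a marker is expressed. TDNC1 replicate 3 stood apart from TDNC1 replicates 1 and 2, and the values that it moves most are therefore given with and without it. That array was singled out by its measured values, which lie near the control. Leaving it out therefore tends to widen the differences between the groups. Unadjusted p under 0.05 was found in 7.7% of all rows with it and in 14.5% without it. Values without that array are descriptive and are not a better estimate.

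No splicing factor gene passed the test between TDNC1 and control when all 6 arrays were used. The test was limma's moderated test with Benjamini-Hochberg adjustment over all 53617 rows at 0.05, and it called 0 of 132 genes (smallest adjusted p = 0.631), where it called 0.00187% of all rows. At an unadjusted p under 0.05 there were 5 of 132 genes, 3.79%, where 7.7% of all rows were past that line. The share was 7.23% over the rows with 1 symbol and 8.62% over the rows brighter than the median row. The 4 genes ZC3H6, RBM26-AS1, HNRNPLL and SRSF12 were higher in TDNC1, as were 3.74% of all rows, and SNRPA was lower, as were 3.96% of all rows. The higher and lower counts of 4 and 1 depended on single arrays. They were 0 and 1 without TDNC1 replicate 1, where 2.55% and 2.67% of all rows were past the line higher and lower, and 0 and 0 without TDNC1 replicate 2 (2.26% and 2.76% of all rows). Without TDNC1 replicate 3 they were 13 and 17 (6.87% and 7.62% of all rows). They were 3 and 0 without control replicate 1 (2.59% and 2.98%), 1 and 0 without control replicate 2 (2.66% and 2.81%), and 0 and 1 without control replicate 3 (3.88% and 4.43%). The 3 TDNC1 arrays lay wholly above or below the 3 control arrays for 24 genes, 18.2%, where 13.2% of all rows did so. Of these, 11 genes were higher, against 6.48% of all rows, and 13 lower, against 6.7%. Among the rows with 1 symbol 15.2% did so, and among the rows brighter than the median row 16%.

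The median log2 change over the 132 genes was -0.03, where it was -0.01 over all rows. Single genes ran from -0.39 (SRSF6) to 1.03 (ZC3H6), with 55 above 0 and 77 below 0. The family medians lay between -0.21 for the 3 U2AF genes and 0.07 for the 4 CLK kinases. They were 0.03 for 11 SR protein genes, -0.02 for 25 hnRNP genes, -0.08 for 12 Sm and snRNP core genes, -0.02 for 7 snRNP-specific genes and -0.06 for 10 PRPF genes. The others were -0.04 for 40 numbered RBM genes, -0.05 for 3 LUC7-like genes, -0.14 for 2 TRA2 genes and -0.02 for 15 ZC3H genes. The families follow the spelling of the symbols and are not strict protein classes. SNRPA, a protein of the U1 particle, thus counts in the Sm and snRNP core family. The families were not tested against each other. Leaving out single arrays moved the U2AF median between -0.35, without TDNC1 replicate 3, and -0.14, without TDNC1 replicate 1.

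**Figure D1:**
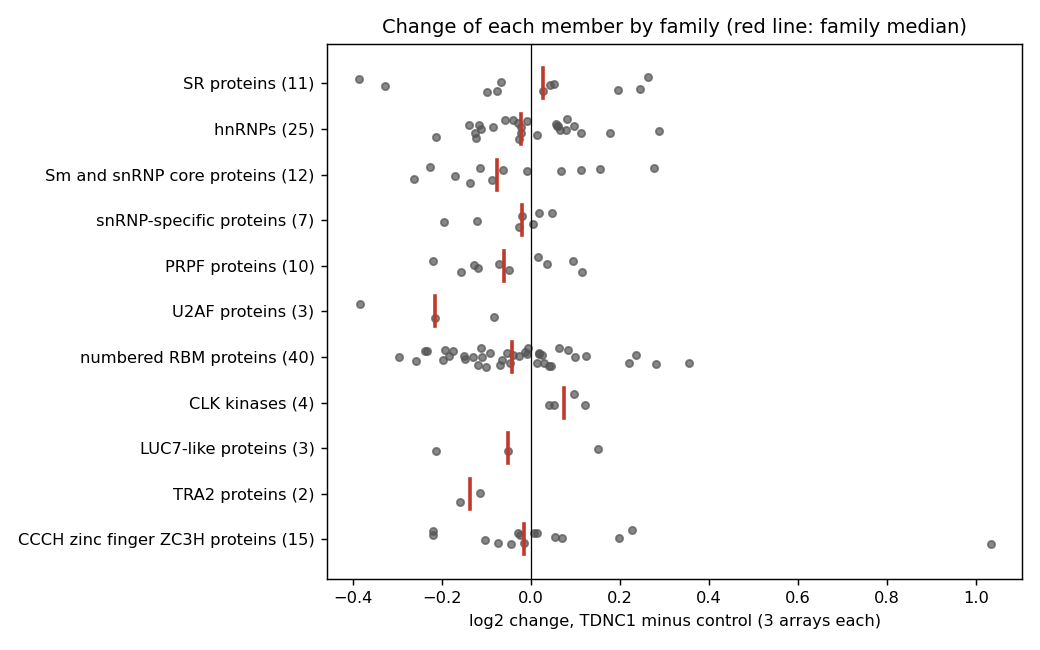
Each point is 1 gene at its log2 change, TDNC1 minus control (x axis, 3 arrays each), in the row of its family, with the number of genes in brackets and the family median as a red line. All 3 U2AF genes and both TRA2 genes lie below 0, all 4 CLK kinases lie above 0, and ZC3H6 at 1.03 lies far from the other genes.

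ZC3H6, which encodes a CCCH zinc finger protein, had the largest difference of all 132 genes. It stood at 7.97, 7.96 and 6.60 in TDNC1, against 6.56, 6.49 and 6.37 in the control. TDNC1 replicates 1 and 2 were far above every other array, while TDNC1 replicate 3 lay just above the highest control. The log2 change was 1.03 (SE 0.35, 95% interval 0.20 to 1.87), or 2.05-fold, and it did not pass (limma adjusted p = 0.631). Without TDNC1 replicate 3 the change was 1.49 (SE 0.10), or 2.81-fold, and ZC3H6 was the 1 member that passed (limma adjusted p = 0.0303), where 0.0429% of all rows did. The array was left out because of its values, so this call is descriptive only. Across the alternatives its adjusted p lay between 0.0303 and 0.919, and it was not called when control replicate 3 was left out as well.

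The region before a gene's start is shown for ZC3H6 and for SRSF6, the genes with the highest and the lowest change. The sequences are RefSeq's (GRCh38.p14, 250 bases before to 50 after the start), 112 of 132 members matched that table, and capitals mark a CCAAT box (CCAAT) or a GC box (GGGCGG) on either strand. They lie at chr2:112275347-112275646 for ZC3H6 and chr20:43457646-43457945 for SRSF6, both on the plus strand.
ZC3H6: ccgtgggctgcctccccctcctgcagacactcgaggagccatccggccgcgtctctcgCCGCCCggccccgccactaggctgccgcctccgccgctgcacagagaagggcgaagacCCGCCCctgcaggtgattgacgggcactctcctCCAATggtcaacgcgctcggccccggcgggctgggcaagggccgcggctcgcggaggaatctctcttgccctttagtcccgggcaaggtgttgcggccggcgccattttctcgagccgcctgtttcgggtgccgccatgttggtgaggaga
SRSF6: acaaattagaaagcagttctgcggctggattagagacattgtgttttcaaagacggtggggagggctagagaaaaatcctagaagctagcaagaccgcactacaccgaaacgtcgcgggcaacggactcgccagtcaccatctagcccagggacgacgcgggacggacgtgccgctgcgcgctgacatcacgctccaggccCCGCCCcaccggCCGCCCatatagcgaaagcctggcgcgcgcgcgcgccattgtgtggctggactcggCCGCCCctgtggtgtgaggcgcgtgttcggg
ZC3H6 held 1 CCAAT box and 2 GC boxes, and SRSF6 held 0 CCAAT boxes and 3 GC boxes. A CCAAT box was present in 50.9% of the 112 member promoters and in 35.7% of all 27305 promoters of the same length. A GC box was present in 63.4% of the member promoters and in 44.6% of all. Among promoters of protein-coding genes the shares were 51.4% of members and 36.4% of all for the CCAAT box, and 64.2% and 58.5% for the GC box. Median GC content was 62.7% in the members, 58.3% in all promoters and 62.7% in those of protein-coding genes. These matches are descriptions of letters and were not tested against expression.

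ZC3H6 is next to another member, ZC3H8, in the order of measured genes on chromosome 2 (GRCh38.p14 gene table). ZC3H8, also a CCCH zinc finger gene, had a change of 0.05 (SE 0.10). The 3 measured genes on either side of ZC3H6 ran from -0.09 (CHCHD5) to 0.20 (TMEM87B). None of them had a difference near that of ZC3H6 in size. Among the other 14 ZC3H genes the highest changes were 0.23 for ZC3H12B and 0.20 for ZC3H11A, and the lowest -0.22 for both ZC3H10 and ZC3H12D. Without TDNC1 replicate 3 the changes were 0.36 (SE 0.15) for ZC3H12B, 0.30 (SE 0.09) for ZC3H11A and -0.12 (SE 0.11) for ZC3H12D. ZC3H10 stood at 6.46, 6.46 and 6.39 in TDNC1 and at 6.84, 6.63 and 6.51 in the control, with no overlap (limma adjusted p = 0.667). ZC3H13, a cofactor of the complex that methylates adenosines in mRNA, had values between 10.05 and 10.10 in all 6 arrays.

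The SR protein genes went both ways. SRSF6 stood at 9.38, 9.41 and 10.28 in TDNC1, against 10.04, 9.97 and 10.22 in the control. TDNC1 replicates 1 and 2 were the lowest arrays and TDNC1 replicate 3 the highest of all 6. The change was -0.39 (SE 0.24, limma adjusted p = 0.705) with all arrays and -0.68 (SE 0.11) without TDNC1 replicate 3. SRSF8 stood at 8.07, 8.01 and 8.52 in TDNC1 and at 8.44, 8.46 and 8.68 in the control. The lowest arrays were again TDNC1 replicates 1 and 2, while TDNC1 replicate 3 lay inside the control range. Its change was -0.33 (SE 0.16, limma adjusted p = 0.661), and -0.49 (SE 0.11) without that array.

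Other SR genes had higher values in TDNC1. SRSF12 stood at 6.63, 6.48 and 6.39 in TDNC1, against 6.37, 6.14 and 6.21 in the control. The groups did not overlap, by a narrow margin, and the change was 0.26 (SE 0.11, limma adjusted p = 0.646). SRSF5 stood at 8.02, 8.02 and 7.93 in TDNC1 and at 7.82, 7.74 and 7.83 in the control. All 3 TDNC1 arrays were above the control, with a change of 0.20 (SE 0.09, limma adjusted p = 0.646), and the value without TDNC1 replicate 3 was 0.23. SRSF11 stood at 9.41, 9.44 and 9.09 in TDNC1, against 9.10, 9.16 and 8.96 in the control. TDNC1 replicate 3 lay inside the control range, and the change of 0.25 (SE 0.13) became 0.36 (SE 0.10) without it. SRSF1, the first SR protein to be studied in depth as an exon-binding splicing activator, had 11.53, 11.55 and 11.61 in TDNC1, all below 11.67, 11.64 and 11.67 in the control, a change of -0.10 (SE 0.08). The remaining SRSF genes SRSF2, SRSF3, SRSF4 and SRSF7 and the pseudogene SRSF3P2 lay between -0.08 and 0.05, and without TDNC1 replicate 3 SRSF2 had -0.16 (SE 0.09) and SRSF3 -0.14 (SE 0.09).

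**Figure D2:**
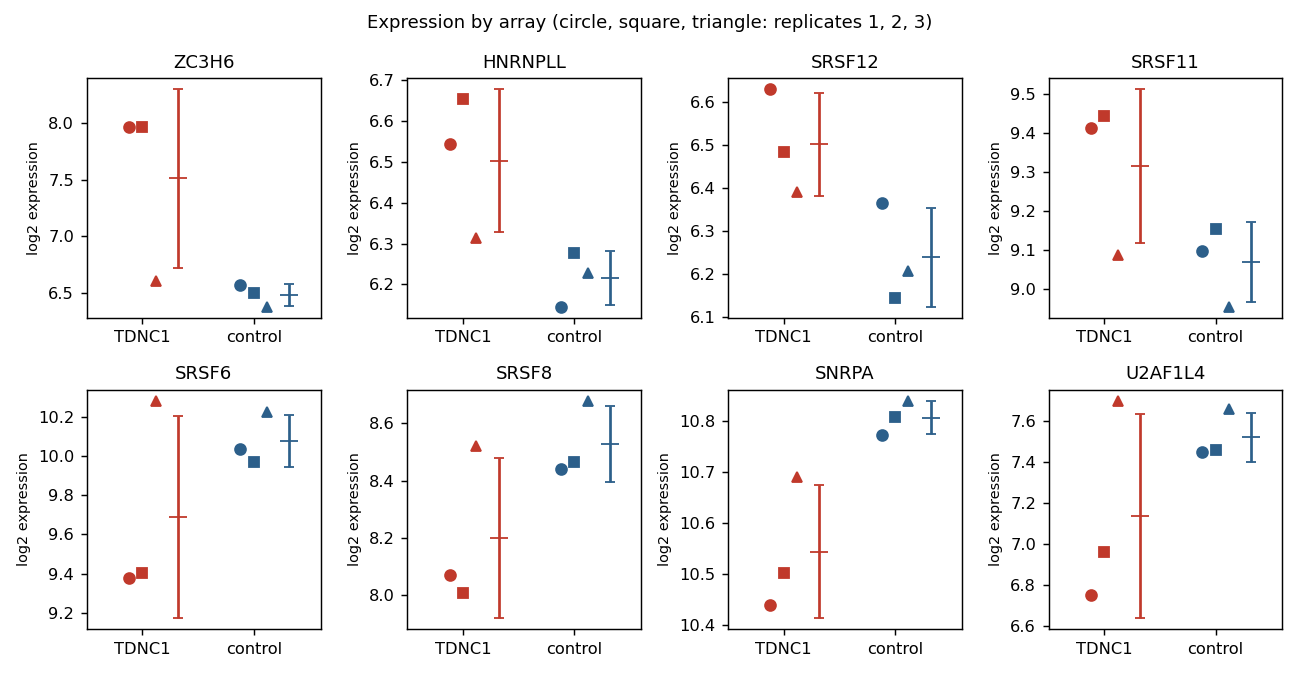
Log2 expression (y axis, a scale of its own in each panel) of 8 genes in each array, TDNC1 in red and control in blue, with circles, squares and triangles for replicates 1, 2 and 3 and a bar for the mean and SD of 3 arrays. TDNC1 replicate 3 (red triangle) lies near the control arrays in ZC3H6, SRSF11, SRSF6, SRSF8 and U2AF1L4, for example at 10.28 for SRSF6 against 9.97 to 10.22 in the control.

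Among the kinases that act on SR proteins, the 4 CLK genes had changes of 0.04 (CLK2), 0.05 (CLK1), 0.10 (CLK3) and 0.12 (CLK4). Without TDNC1 replicate 3 CLK3 had 0.15 (SE 0.09) and CLK4 0.21 (SE 0.12). The mean of the 4 CLK genes relative to the control mean was 0.10, 0.08 and 0.05 in TDNC1, against 0.03, 0.01 and -0.04 in the control, so the arrays of the 2 groups did not overlap in the mean. The TDNC1 arrays also lay wholly on 1 side of the control, lower, in the means of the TRA2 genes, the numbered RBM genes and all 132 genes. No single CLK gene separated the groups, and the sign of CLK2 turned without TDNC1 replicate 3 (-0.04) and without control replicate 1 (-0.0054) and that of CLK1 without control replicate 3 (-0.04). The TRA2 proteins, which bind exonic enhancers, had changes of -0.16 (TRA2A) and -0.11 (TRA2B). Their mean relative to the control mean was -0.17, -0.21 and -0.04 in TDNC1, against 0.00, 0.02 and -0.03 for control cells. That of the numbered RBM genes was -0.03, -0.05 and -0.02 in TDNC1, against -0.01, 0.00 and 0.01 in the control.

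Of the genes that read the intron's end, U2AF2 encodes the subunit that binds the pyrimidine tract. It stood at 10.64, 10.65 and 11.05 in TDNC1, against 10.94, 11.00 and 11.05 in the control. TDNC1 replicates 1 and 2 were the lowest and TDNC1 replicate 3 the highest array. The change was -0.21 (SE 0.13, limma adjusted p = 0.702), and -0.35 (SE 0.09) without TDNC1 replicate 3. U2AF1L4, a relative of the small subunit, stood at 6.75, 6.96 and 7.70 in TDNC1 and at 7.45, 7.46 and 7.66 in the control. It followed the same order of arrays, with a change of -0.38 (SE 0.24), and -0.67 (SE 0.12) without TDNC1 replicate 3. U2AF1, the small subunit, which recognises the AG at the intron's end, had 8.56, 8.56 and 8.59 in TDNC1, against 8.69, 8.66 and 8.61 in the control, a change of -0.08 (SE 0.08). The U2AF mean relative to the control mean was -0.41, -0.33 and 0.06 in TDNC1, against -0.03, -0.02 and 0.05 in the control.

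**Figure D3:**
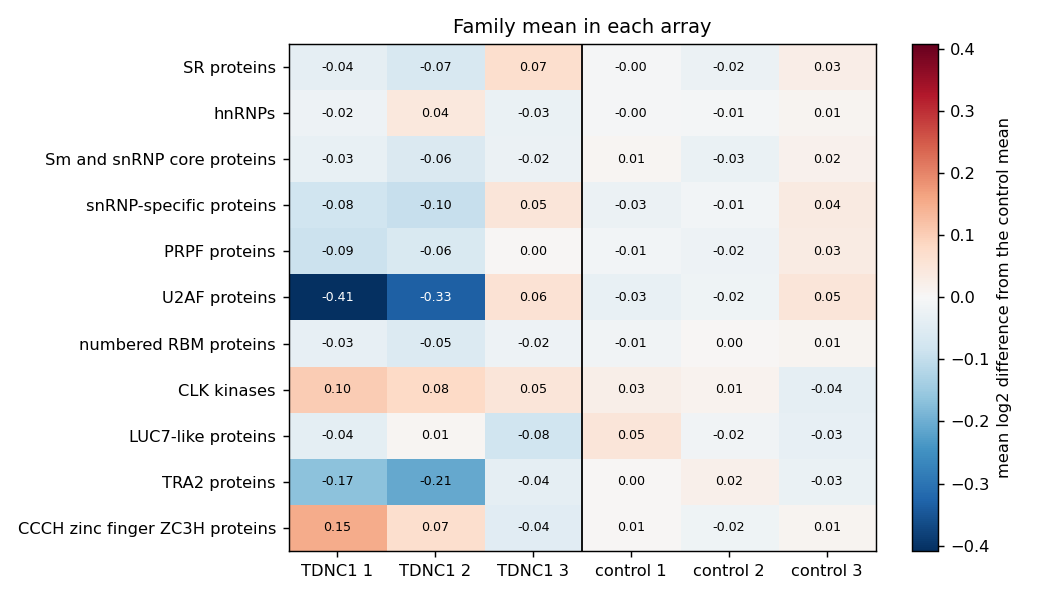
Mean log2 difference from the control mean (colour and printed value) for each of the 11 families (rows) in each of the 6 arrays (columns, TDNC1 left of the line). The U2AF genes are lowest in TDNC1 replicates 1 and 2 (-0.41 and -0.33) and lie at 0.06 in TDNC1 replicate 3.

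In the U1 and Sm proteins, SNRPA had the smallest p of the lower genes. It encodes the A protein of the U1 particle, which recognises the start of the intron. It stood at 10.44, 10.50 and 10.69 in TDNC1, against 10.77, 10.81 and 10.84 in the control. All 3 TDNC1 arrays were below all 3 control arrays, and the change of -0.26 (SE 0.10, 95% interval -0.50 to -0.03) did not pass (limma adjusted p = 0.638). SNRPF, a member of the Sm ring, stood at 6.40, 6.47 and 6.77 in TDNC1 and at 6.78, 6.72 and 6.81 in the control. TDNC1 replicate 3 lay inside the control range, and the change was -0.23 (SE 0.12), and -0.34 (SE 0.09) without it. The Sm gene SNRPD3 had a change of -0.17 (SE 0.09), with no overlap between groups, and the pseudogene SNRPD2P2 one of 0.28 (SE 0.16). The Sm ring gene SNRPE has 2 rows, with changes of 0.16 and -0.03.

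The snRNP-specific genes differed little. SNRNP25, a protein of the minor spliceosome, stood at 6.29, 6.21 and 6.81 in TDNC1, against 6.60, 6.70 and 6.60 in the control, a change of -0.19 (SE 0.16), and -0.38 (SE 0.09) without TDNC1 replicate 3. Here TDNC1 replicate 3 was the highest of the 6 arrays. SNRNP200, the helicase that unwinds the U4 and U6 RNAs, had a change of 0.05 (SE 0.08) and SNRNP27 one of -0.12 (SE 0.09). In the PRPF family, PRPF4 had the lowest change, -0.22 (SE 0.15), PRPF38A had -0.16 (SE 0.09) with no overlap between groups, and PRPF39 had the highest, 0.11 (SE 0.14). Over the fits that left out 1 array PRPF4 ran from -0.12, without control replicate 3, to -0.35, without TDNC1 replicate 3, and PRPF39 from 0.03, without TDNC1 replicate 2, to 0.25, without TDNC1 replicate 3. PRPF8, the central scaffold of the spliceosome, had 11.68, 11.64 and 11.66 in TDNC1, against 11.65, 11.67 and 11.61 in the control. The LUC7-like proteins, which associate with U1, were split. LUC7L2 had a change of -0.21 (SE 0.10) with no overlap, LUC7L3 one of 0.15 (SE 0.13). The change of LUC7L3 was 0.05 without TDNC1 replicate 1, 0.10 without control replicate 3 and 0.27 without TDNC1 replicate 3.

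Among the hnRNPs, HNRNPLL, known for regulating the splicing of the CD45 message in lymphocytes, stood at 6.54, 6.65 and 6.31 in TDNC1, against 6.15, 6.28 and 6.23 in the control. The groups did not overlap, and the change was 0.29 (SE 0.11, limma adjusted p = 0.646), or 1.22-fold. HNRNPM stood at 11.35, 11.34 and 11.58 in TDNC1 and at 11.63, 11.64 and 11.64 in the control. Its TDNC1 arrays were all lower, TDNC1 replicate 3 the least, with a change of -0.21 (SE 0.10, limma adjusted p = 0.658). HNRNPA2B1 had 0.18 (SE 0.10), also with no overlap. HNRNPK, a poly(C)-binding protein, had -0.03 (SE 0.09). The row of HNRNPA1, one of the classic exon-silencing hnRNPs, stood at 8.34, 8.29 and 7.89 in TDNC1, against 8.13, 8.17 and 8.03 in the control. Every control array lay below TDNC1 replicates 1 and 2 and above TDNC1 replicate 3, and the change of 0.07 (SE 0.14) became 0.21 (SE 0.09) without TDNC1 replicate 3. The hnRNP A1 genes include near-identical processed copies that probes may not tell apart. The 2 rows of the pseudogene HNRNPA1P10 had changes of 0.06 and -0.33, so that neither is a firm value for any 1 gene.

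The 40 numbered RBM genes, which share an RNA recognition motif in most cases and little else, ran from -0.30 (RBM23) to 0.36 (RBM26-AS1, a noncoding RNA). RBM26-AS1 stood at 6.94, 6.68 and 6.50 in TDNC1, against 6.48, 6.35 and 6.22 in the control. The groups met without overlap, and the change was 0.36 (SE 0.14, limma adjusted p = 0.643). Its second, dimmer row had -0.10, and its sense partner RBM26 had -0.09 (-0.01 without TDNC1 replicate 3), so that the higher value belongs to 1 row. Whether the arrays' probes tell sense from antisense is not stated in the sources used here.

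RBM23 stood at 8.96, 8.84 and 9.45 in TDNC1, against 9.27, 9.33 and 9.55 in the control. TDNC1 replicates 1 and 2 were the lowest, and the change of -0.30 (SE 0.17) became -0.48 (SE 0.12) without TDNC1 replicate 3. RBM14, a paraspeckle protein, stood at 8.41, 8.41 and 8.73 in TDNC1 and at 8.72, 8.73 and 8.80 in the control, and had -0.23 (SE 0.12). RBM19, which acts in ribosome assembly, had -0.19 (SE 0.10) with no overlap. RBM6 had -0.18 (SE 0.09), also with no overlap, and RBM5, its neighbour on chromosome 3 and like it a splicing regulator, had -0.15 (SE 0.10), and -0.22 (SE 0.09) without TDNC1 replicate 3. Among 9 pairs of members that are adjacent in the order of measured genes, the changes had the same sign in 4, namely ZC3H11A with SNRPE, ZC3H8 with ZC3H6, RBM6 with RBM5, and RBM5 with RBM5-AS1. The pair of ZC3H11A with SNRPE rests on the brighter SNRPE row (0.16), and the other SNRPE row had -0.03. Without TDNC1 replicate 3 the dim RBM4 turned to -0.08, the sign of its neighbours RBM14 (-0.34) and RBM4B (-0.38). Some of the 9 pairs share members, so they are not independent.

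**Figure D4:**
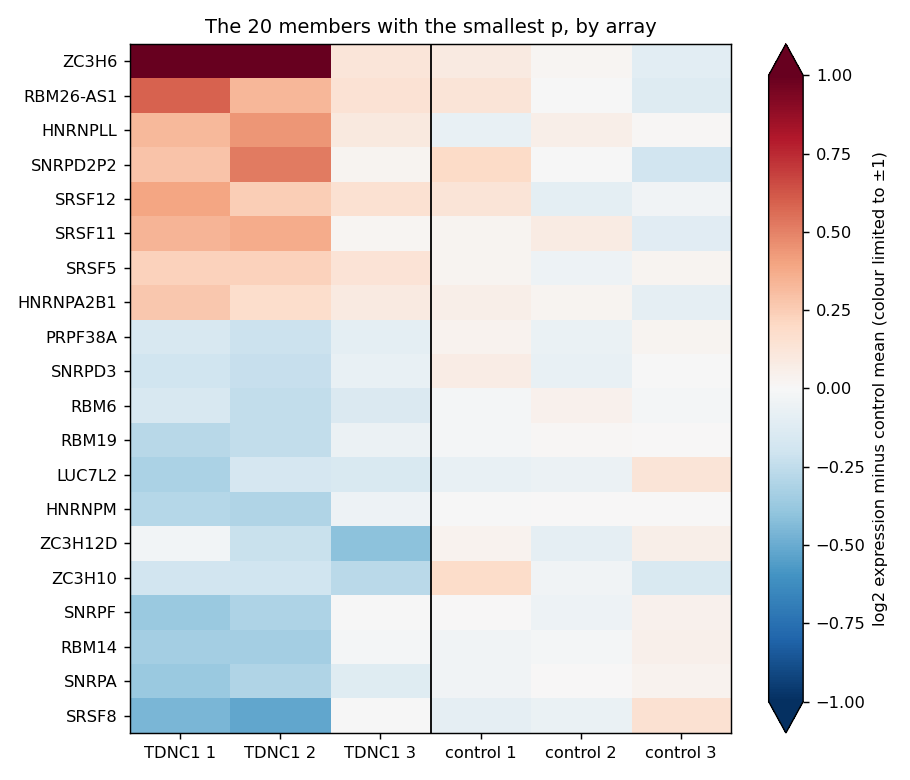
Log2 expression minus the control mean (colour, limited to 1 on either side) for the 20 genes with the smallest unadjusted p (rows, ordered by change) in each array (columns, TDNC1 left of the line). TDNC1 replicates 1 and 2 pass the colour limit in ZC3H6 alone, and the other rows lie well within it. TDNC1 replicate 3 is paler than TDNC1 replicates 1 and 2 in most rows, except in ZC3H10 and ZC3H12D, where TDNC1 replicate 3 is the lowest array.

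Over the 132 genes TDNC1 replicate 3 was nearer to every control array than to the other TDNC1 arrays. The median absolute log2 difference was 0.170 and 0.161 from TDNC1 replicates 1 and 2, which differed from each other by 0.0709. From control replicates 1, 2 and 3 it was 0.0842, 0.0768 and 0.0662. The same array carried LOC646736 at 9.65, against 3.56 to 3.90 in the control. The part of culture, RNA quality or array handling in its position was not tested. In 33 genes, 25%, TDNC1 replicates 1 and 2 lay outside the control range on 1 side and TDNC1 replicate 3 inside it, where 13.8% of all rows, 18.4% of the rows with 1 symbol and 19.6% of the rows brighter than the median row did so.

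**Figure D5:**
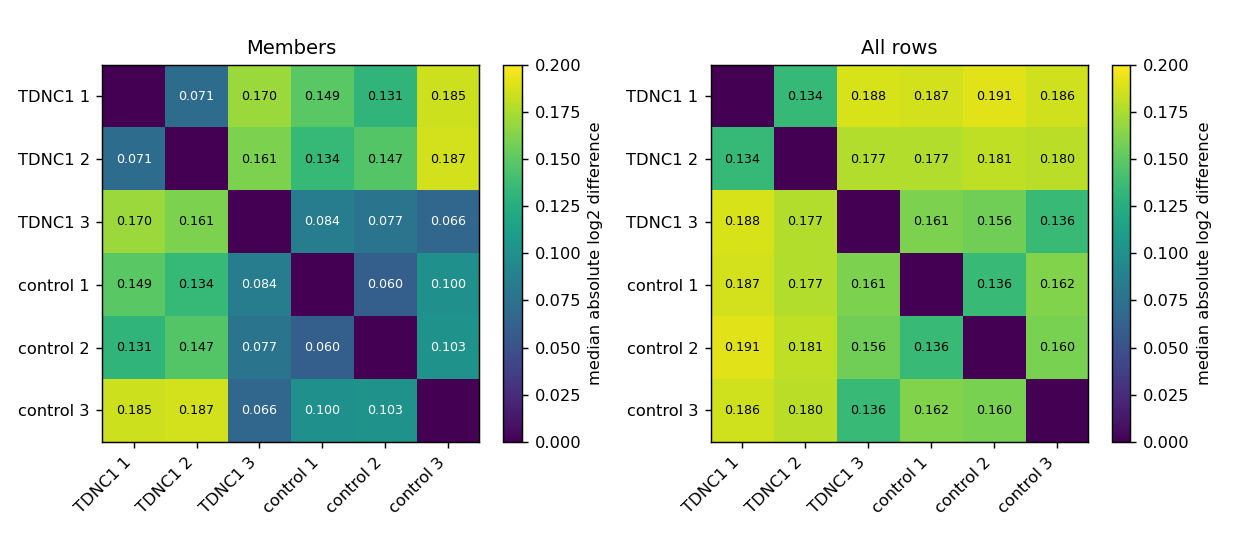
Median absolute log2 difference (colour and printed value) between each pair of the 6 arrays, over the 132 genes (left) and over all 53617 rows (right). In the left panel TDNC1 replicate 3 differs by 0.066 to 0.084 from the control arrays and by 0.161 and 0.170 from TDNC1 replicates 2 and 1. In the right panel these values are 0.136 to 0.161 and 0.177 and 0.188.

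Without TDNC1 replicate 3, 30 genes had an unadjusted p under 0.05, 22.7%, where 14.5% of all rows, 17.3% of the rows with 1 symbol and 20.2% of the brighter rows did. Of these, 13 were higher in TDNC1, against 6.87% of all rows, and 17 lower, against 7.62%. The TDNC1 arrays lay wholly on 1 side of the control in 73 genes, 55.3%, where 33.3% of all rows, 41.4% of the rows with 1 symbol and 44% of the brighter rows did. Here 31 genes were higher, against 15.9% of all rows, and 42 lower, against 17.3%. Apart from ZC3H6, none passed. The limma adjusted p of SRSF6 was 0.108, and it lay between 0.108 and 0.935 across the alternatives. RBM20 and RBM22 are past the unadjusted line here and not with all arrays, and they were picked after their values were seen. RBM20, the cardiac regulator of titin splicing, stood at 7.41, 7.17 and 6.80 in TDNC1, against 6.77, 6.94 and 6.84 in the control, and its change was 0.28 with all arrays and 0.44 (SE 0.12) without TDNC1 replicate 3. RBM22, a protein of the catalytic spliceosome, stood at 9.12, 9.16 and 9.61 in TDNC1 and at 9.48, 9.52 and 9.65 in the control, and had -0.26 and -0.41 (SE 0.10). In both genes TDNC1 replicate 3 lay inside the control range. With both arrays numbered 3 left out, 23 genes had an unadjusted p under 0.05, where 15% of all rows did, and 0 passed limma's test, where 0.00187% of all rows did. Of the 23, 10 were higher, against 6.9% of all rows, and 13 lower, against 8.09%.

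Other genes of RNA processing, from lists that do not use these names, also held no gene that passed. Assembly of snRNPs by the SMN complex had 11 measured genes, with a median change of -0.09, 9 of them below 0 and 1 of them, lower, at an unadjusted p under 0.05, where 7.7% of all rows were past that line. That gene, GEMIN5, stood at 9.60, 9.61 and 9.90 in TDNC1, against 10.07, 9.95 and 9.94 in the control, a change of -0.29 (SE 0.11). WDR77, a partner of the methylase that modifies Sm proteins, had -0.35 (SE 0.17), and -0.55 (SE 0.10) without TDNC1 replicate 3. The SR protein kinases had 4 measured genes, 1 higher and 1 lower at that level, against 3.74% and 3.96% of all rows. SRPK2 stood at 7.94, 7.96 and 7.77 in TDNC1, against 7.59, 7.56 and 7.63 in the control, a change of 0.30 (SE 0.09, limma adjusted p = 0.631). All 3 TDNC1 arrays were above the control. DYRK1A, a kinase of nuclear speckles, had -0.25 (SE 0.10).

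Exon junction and SR-related proteins had 13 measured genes and a median of -0.04, with THRAP3 at 0.25 (SE 0.10) and the exon junction core gene CASC3 at -0.35 (SE 0.15). Spliceosomal helicases had 11 genes and a median of -0.002, with 0 past the unadjusted line, and DHX16 had -0.32 (SE 0.15; -0.48 without TDNC1 replicate 3) and DHX8 -0.18 (SE 0.09). The minor spliceosome had 2 measured genes, and CENATAC stood at 6.77, 6.71 and 6.81 in TDNC1, against 7.07, 7.07 and 7.05 in the control. All 3 TDNC1 arrays were lower, by a log2 change of -0.29 (SE 0.08, limma adjusted p = 0.631). Tissue-regulated splicing regulators had 12 measured genes and a median of -0.01, with NOVA2 at 0.24 (SE 0.11). The PRP19 complex (9 genes), the FET and TDP-43 proteins (5), decay factors (2) and 3' end processing (5) had 0 genes past the unadjusted line, with medians of -0.004, -0.04, -0.001 and 0.12. The cold-inducible gene CIRBP had 0.11 (SE 0.12), and no LSm gene was among the named rows. Of the control genes, GAPDH had 0.01 (SE 0.09), HPRT1 0.14 (SE 0.09) and TBP -0.28 (SE 0.11).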

How the data were processed

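The deposited values are log2 expression per transcript cluster. The submitters' processing notes name RMA and Affymetrix Power Tools; no version, annotation or build is stated there. RMA equalises the arrays' probe distributions and compresses changes of dim rows. Rows were named through the platform annotation, and the GRCh38.p14 gene table held all 132 entrez identifiers. The 2 groups were fitted with limma 3.58.1 (R 4.3.3, moderated test, two-sided, no covariate) over all 53617 rows, adjusted by Benjamini-Hochberg and called at 0.05. The step was tested on simulated data. Members, lists and tests were chosen with earlier results of these data known. A dim row has a mean below the lowest lower quartile of the arrays.

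The rule for named genes took, in each family, the genes with the highest and lowest change, the smallest p, and the brightest and dimmest row. It added the 20 members with the smallest p, any called member, up to 2 genes with the smallest p of each other list, the control genes and LOC646736. RBM4B, RBM5, RBM5-AS1, RBM20, RBM22, RBM26, ZC3H8, ZC3H11A, ZC3H12B, HNRNPA1, HNRNPK, SNRPE, SRSF2, SRSF3, SRSF4, SRSF7, the neighbours of ZC3H6 and the marker genes lie outside it and were named after their values were seen.

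Alternatives left out each array or both numbered 3, or added the replicate block, array weights, a variance trend or quantile normalization. Others tested only the 26808 rows brighter than the median row, tested named rows alone, or averaged the rows of a symbol. Arrays have no depth, and 3 per group limit the precision.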

Additional observations from a re-analysis of the deposited data

How the results depend on the processing

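Of the values that summarise a comparison, 186 stayed near the reported value under an alternative and 63 moved. Over the fits that left out 1 array, called rows ran from 1 to 23 and called members from 0 to 1. Members with an unadjusted p under 0.05 ran from 0 to 13 higher and from 0 to 17 lower. Over all rows these shares ran from 2.26% to 6.87% and from 2.67% to 7.62%. Members without overlap ran from 11 to 31 higher (8.33% to 23.5%) and from 14 to 42 lower (10.6% to 31.8%). Over all rows those shares ran from 9.62% to 15.9% and from 10.7% to 17.3%. The medians ran from -0.35 to -0.14 (U2AF), -0.19 to -0.10 (TRA2), -0.11 to -0.013 (Sm and snRNP core), -0.096 to -0.023 (PRPF), -0.11 to 0.015 (LUC7-like), -0.066 to -0.027 (numbered RBM), -0.0076 to 0.028 (SR), -0.027 to 0.018 (hnRNP), -0.045 to 0.019 (snRNP-specific), 0.059 to 0.099 (CLK), -0.028 to 0.012 (ZC3H) and -0.042 to -0.016 (all members). Leaving out both arrays numbered 3 gave 10 higher and 13 lower past the unadjusted line (6.9% and 8.09% of all rows) and 37 and 48 without overlap (28% and 36.4% of members, against 21.9% and 26% of all rows). The medians were then -0.00084 (SR), -0.0024 (hnRNP), -0.093 (PRPF), -0.32 (U2AF), -0.13 (LUC7-like), -0.20 (TRA2) and -0.0011 (ZC3H). Weighting the arrays gave 9 higher and 12 lower (6.82% and 9.09% of members, against 6.49% and 6.87% of all rows), and medians of -0.28 (U2AF), -0.17 (TRA2) and -0.033 (ZC3H). Genes lower past the unadjusted line numbered 2 among brighter rows, 3 among named rows and 4 with a variance trend (4.72%, 4.13% and 4.09% of the rows tested). The SR median was -0.020 among brighter rows. After quantile normalization 7 genes were higher without overlap, and the share over all rows was not computed there, so that count cannot be weighed. The cause of these moves was not tested. With the replicate number as a block, 3 genes were higher and 2 lower past the unadjusted line and 0 were called. These were 2.27% and 1.52% of members, against 3.47% and 4.18% of all rows. Same-numbered arrays deviated together with correlations of 0.036, -0.0013 and 0.047, so the numbers were not taken as pairs. The 2 arrays numbered 3 were still each other's nearest arrays by median absolute difference (0.136 over all rows). ZC3H6 was called without TDNC1 replicate 3 (1.49). Signs turned for RBM4 under array weights (-0.036) and when both arrays numbered 3 were dropped (-0.047), for HNRNPA1P10 with its rows averaged (-0.14), for ZC3H13 after quantile normalization (-0.0069), and for CLK1 (-0.046) and PRPF8 (-0.00018) when both arrays numbered 3 were dropped. Leaving out 1 array also turned signs, none of them of a called gene. The ranges were -0.012 to 0.084 (SRSF3P2), -0.14 to 0.19 (HNRNPCL1), -0.13 to 0.065 (SNRNP35), -0.010 to 0.018 (ZC3H13), -0.036 to 0.11 (CLK2), -0.083 to 0.10 (RBM4), -0.039 to 0.11 (CLK1) and -0.0021 to 0.030 (PRPF8).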
